A study of Mus musculus with 6 samples.

Results

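The 10 genes described here encode enzymes that remove superoxide or peroxides: the superoxide dismutases Sod1, Sod2 and Sod3, catalase (Cat), the glutathione peroxidases Gpx1, Gpx3 and Gpx4, and the peroxiredoxins Prdx2, Prdx3 and Prdx5. They were listed by name and function, with earlier results of these data known, and every probe set that the platform's annotation table gives to 1 of them alone was taken. That table gave 16 probe sets to 9 of the 10 genes, out of 22626 probe sets and 12393 named genes. It listed none under Prdx5, a peroxiredoxin of mitochondria, peroxisomes and cytosol, which was not analysed here. RNA of subcutaneous white fat was hybridised to Affymetrix arrays, 3 for each of 2 groups of mice, and the titles call the depot IWAT. Every mouse was 8 weeks old, on a mixed C57BL6 and 129 background, homozygous for floxed Yy1, and had 2 weeks of high fat diet. The group called YY1bKO also carried Ucp1Cre, a recombinase driven from Ucp1 sequences and so active mainly in brown and beige adipocytes, and the control group did not. No group with Cre alone is named, so Cre and loss of YY1 cannot be told apart. The labels do not say whether arrays of a group came from different mice, and p-values then reflect only the spread between these arrays, which may be technical.

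Dismutases turn superoxide into hydrogen peroxide and oxygen. Catalase splits hydrogen peroxide without a reducing partner, whereas glutathione peroxidases spend glutathione and peroxiredoxins spend thioredoxin. Each protein except Gpx4 and Prdx5 was placed here by its main compartment. Copper-zinc Sod1, Gpx1 and Prdx2 were placed in the cytosol, and manganese Sod2 and Prdx3 in the mitochondrial matrix. Catalase was placed in peroxisomes, and Sod3 and Gpx3 outside the cell. Gpx4, which reduces lipid hydroperoxides in membranes, is made in cytosolic, mitochondrial and nuclear forms. Adipocytes make peroxide in respiration and in peroxisomal fatty acid oxidation, and Gpx3 of the blood plasma comes from kidney and from fat.

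The probe sets of Yy1, the targeted gene, had log2 differences (YY1bKO minus control) of -0.24, -0.19, -0.07 and -0.11, with limma adjusted p from 0.609 to 0.879, and whether any lies in the deleted part is not known here. Ucp1 was 38.2-fold higher in YY1bKO (limma adjusted p = 2.53e-04). Array medians of the intensity ran from 122.6 to 130.2. The number of arrays limits precision, and an exact 2-sided permutation test of 3 against 3 cannot go below p = 0.1. Fat markers were bright in every array, and 4 arrays stood apart in markers of other tissue. Markers of skin and mammary epithelium were highest in control replicate 2 (mean centred log2 value 2.74) and those of skeletal muscle in YY1bKO replicate 1 (2.39). B and T lymphocyte markers were lowest in control replicate 1 (-1.81) and YY1bKO replicate 1 (-2.18) and highest in control replicate 3 (2.04).

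Transcripts of the detoxifying enzymes were mostly brighter in YY1bKO fat, by little except for Gpx3. Of the 16 probe sets, 15 had a higher mean in YY1bKO (49.8% of all probe sets), and the median log2 difference was 0.25, beside 0.00 over all probe sets. That median was 0.16 without control replicate 2 and 0.35 without control replicate 1. Gpx3 showed the largest difference, followed by 1 probe set of Sod1, by Prdx3 and by 1 probe set of Gpx4. None of the 16 passed a limma adjusted p of 0.05, a threshold that 0.0486% of all probe sets passed. At an unadjusted limma p under 0.05, 4 of 16 were higher, where the share of all probe sets was 7.46%, and 0 were lower, where it was 2.06%. Without probe sets under the 50th percentile of brightness, 4 of 15 members were higher at that p, beside 10.8% of the probe sets kept. Every YY1bKO array lay above every control array in 5 of 16 (10.3% of all probe sets), and every one below in 0 (5.17%). The 16 are not independent, since 6 genes have more than 1 probe set.

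**Figure D1:**
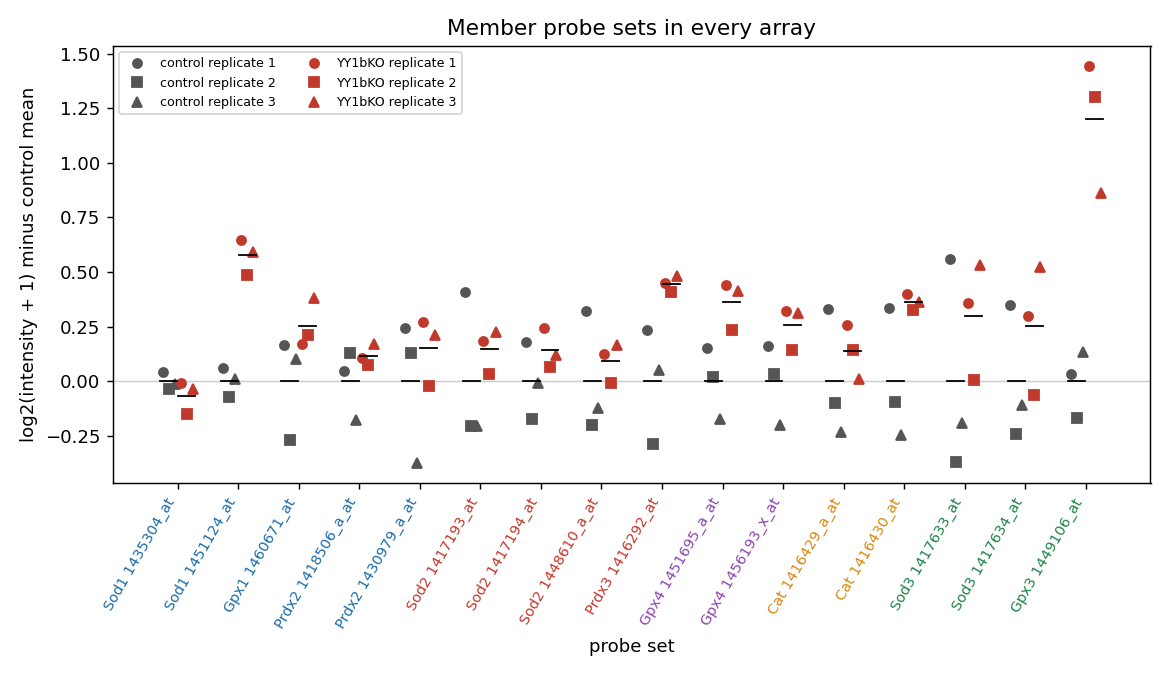
Values of the 16 probe sets in each array as log2(intensity + 1) minus the control mean of that probe set, with grey symbols for control arrays, red for YY1bKO, and short bars at the group means (n = 3 each); names are coloured by compartment. Gpx3 and Sod1 1451124_at separate the groups, while control replicate 1 reaches or exceeds YY1bKO values in Sod2, Sod3 and Cat 1416429_a_at.

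Sod1 is the dismutase of the cytosol, and its probe sets did not give the same answer. Probe set 1451124_at read 4798, 4372 and 4625 in control replicates 1, 2 and 3 and 7206, 6434 and 6935 in YY1bKO replicates 1, 2 and 3. All YY1bKO arrays lay well above all control arrays. On the log2 scale it was higher by 0.58 ± 0.09 (SE, n = 3 per group), which is 1.49-fold, with a 95% confidence interval from 0.35 to 0.80. Its p ranked 90 of 22626, and the limma adjusted p was 0.159. Probe set 1435304_at read 232, 219 and 223 in controls and 223, 202 and 219 in YY1bKO, with overlapping groups. Its log2 difference was -0.06 ± 0.09 (limma adjusted p = 0.858), and its interval ended at 0.14. The higher level of Sod1 was thus seen with the brighter probe set and not with the dimmer one, and where in the transcript each lies was not analysed here.

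Gpx1, a selenoprotein and the main peroxidase of the cytosol, read 9491, 7030 and 9088 in controls and 9515, 9797 and 11032 in YY1bKO. The groups did not overlap, but YY1bKO replicate 1 stood just above control replicate 1, and the wide control spread came from the low replicate 2. The log2 difference of 0.25 ± 0.14 had a limma adjusted p of 0.648. Prdx2, a thioredoxin-dependent peroxidase abundant in red cells, read 1923, 2032 and 1644 in controls with probe set 1418506_a_at, against 1999, 1956 and 2095 in YY1bKO. Its dimmer probe set 1430979_a_at read 473, 436 and 307 against 482, 393 and 462. In both, control replicate 3 was the low array and the groups overlapped, and the log2 differences were 0.12 ± 0.11 and 0.15 ± 0.19. Erythroid markers in the same arrays are given with the other cell types.

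The promoters of these genes were searched because YY1 is the deleted factor and because the antioxidant response element, bound by NRF2, is the known element of many detoxifying genes. RefSeq promoters of build GRCm38.p6 matched 9 of the 10 genes (12 promoters), and the 250 bases before each start were read on both strands. The letters TGACNNNGC, for the antioxidant response element, were found in Sod1 alone, 56 bases before its start (10.2% of all promoters hold them). The letters GCCATNTT, for YY1, were found in Gpx1 alone, 113 bases before its start (3.91% of all promoters). The 2 windows are shown because they are the member promoters with a match; capitals mark it, on the plus strand, and the Sod1 match reads on the opposite strand. They lie at chr16:90220691-90220729 and chr9:108338952-108338989.
Sod1: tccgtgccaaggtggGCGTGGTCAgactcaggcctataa
Gpx1: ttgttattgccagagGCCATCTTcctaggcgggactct

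Prdx3, the peroxiredoxin of the matrix, read 1956, 1359 and 1720 in controls and 2267, 2203 and 2320 in YY1bKO. All YY1bKO arrays lay above all control arrays, and they were closer together than the controls. The log2 difference was 0.45 ± 0.15 (1.36-fold; interval 0.09 to 0.80; limma adjusted p = 0.420). Sod2, the manganese dismutase, read 3850, 2520 and 2519 in controls and 3296, 2975 and 3394 in YY1bKO with probe set 1417193_at, and 3836, 2677 and 2820 against 3354, 3054 and 3447 with 1448610_a_at. In both, control replicate 1 was the highest of all arrays and the other controls the lowest, so the groups overlapped. The 3 Sod2 probe sets had log2 differences of 0.15 ± 0.19, 0.10 ± 0.16 and, for the dim 1417194_at (46.3 to 62.0), 0.14 ± 0.12, and the intervals ran from -0.30 at the lowest to 0.60 at the highest. Whether Prdx3 and Sod2 changed by different amounts was not tested.

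Gpx4 protects membrane lipids, and its loss leads to ferroptosis in many cells. Probe set 1451695_a_at read 8163, 7440 and 6501 in controls and 9957, 8627 and 9773 in YY1bKO, with all YY1bKO arrays above the controls. The log2 difference was 0.36 ± 0.12 (1.29-fold; limma adjusted p = 0.428). Probe set 1456193_x_at, of a class whose probes may also match other transcripts, read 6892, 6310 and 5370 against 7705, 6797 and 7647. There YY1bKO replicate 2 fell just below control replicate 1, so the groups overlapped, and the log2 difference was 0.26 ± 0.12 (limma adjusted p = 0.585).

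Catalase of the peroxisome was measured by probe sets that moved together in the controls and apart in YY1bKO. Probe set 1416430_at read 6883, 5107 and 4594 in controls and 7183, 6828 and 6998 in YY1bKO. Control replicate 1 reached the YY1bKO arrays while the other controls were well below, and the log2 difference was 0.36 ± 0.16 (limma adjusted p = 0.554). Probe set 1416429_a_at read 6962, 5166 and 4714 in controls and 6619, 6106 and 5579 in YY1bKO. Here control replicate 1 was the brightest of all arrays, and the log2 difference was 0.14 ± 0.17 (limma adjusted p = 0.843).

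Of the enzymes secreted from cells, Gpx3 had the largest difference of all members. It read 828, 718 and 887 in controls and 2200, 1992 and 1469 in YY1bKO (probe set 1449106_at). The lowest YY1bKO array, replicate 3, was well above the highest control array. It was higher by 1.20 ± 0.18 (SE) on the log2 scale, which is 2.30-fold, with an interval from 0.78 to 1.63. Its p ranked 63 of 22626, the limma adjusted p was 0.144, and 0.164% of all probe sets had a larger difference. Sod3, the extracellular dismutase bound to matrix, read 574, 301 and 341 in controls and 498, 391 and 563 in YY1bKO with 1417633_at, and 158, 105 and 115 against 153, 119 and 179 with 1417634_at. Control replicate 1 was the brightest of all arrays with 1417633_at and lay among the YY1bKO values with 1417634_at. The log2 differences were 0.30 ± 0.27 and 0.25 ± 0.21.

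**Figure D2:**
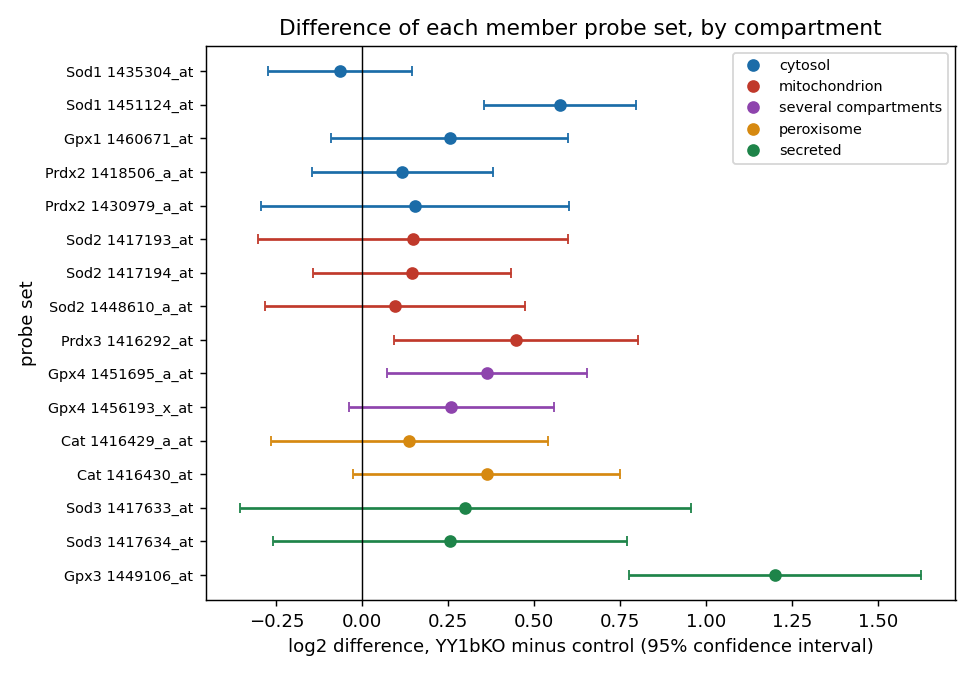
Log2 difference of each probe set, YY1bKO minus control, with its 95% confidence interval from limma (n = 3 arrays per group), coloured by the compartment of the protein. The intervals of Gpx3, Sod1 1451124_at, Prdx3 and Gpx4 1451695_a_at lie above 0, and those of the other 12 probe sets cross it.

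By compartment, the median log2 difference was 0.15 over the 5 cytosolic probe sets, 0.15 over the 4 mitochondrial, 0.31 over the 2 of Gpx4, 0.25 over the 2 of catalase and 0.30 over the 3 secreted. At an unadjusted limma p under 0.05, the counts were 1 of 5, 1 of 4, 1 of 2, 0 of 2 and 1 of 3 in the same order, all higher, beside 7.46% of all probe sets. The probe sets counted were Sod1 1451124_at, Prdx3, Gpx4 1451695_a_at and Gpx3, each the only one of its compartment.

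In the interval between probe sets of a gene in the same array, a shared change of the whole transcript cancels if both respond alike. Whether the probe sets of a pair do so was not tested, and low values are compressed. There were 8 such pairs among the members, and in 3 the YY1bKO arrays did not overlap the controls, beside 15.4% of pairs over all genes in either direction. For Sod1 the log2 interval was 4.37, 4.31 and 4.37 in controls and 5.01, 4.98 and 4.98 in YY1bKO. For Cat, 1416430_at minus 1416429_a_at was -0.02, -0.02 and -0.04 in controls and 0.12, 0.16 and 0.33 in YY1bKO. For Gpx4, 1451695_a_at minus 1456193_x_at was 0.24, 0.24 and 0.28 in controls and 0.37, 0.34 and 0.35 in YY1bKO. In these 3 the controls agreed to within a few hundredths although their levels differed, and the interval was wider by 0.64, 0.23 and 0.10 in YY1bKO. Each gave an exact 2-sided permutation p of 0.1, the smallest possible, and 0.267 adjusted over the 8 pairs. The pairs of Prdx2, Sod2 and Sod3 overlapped.

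**Figure D3:**
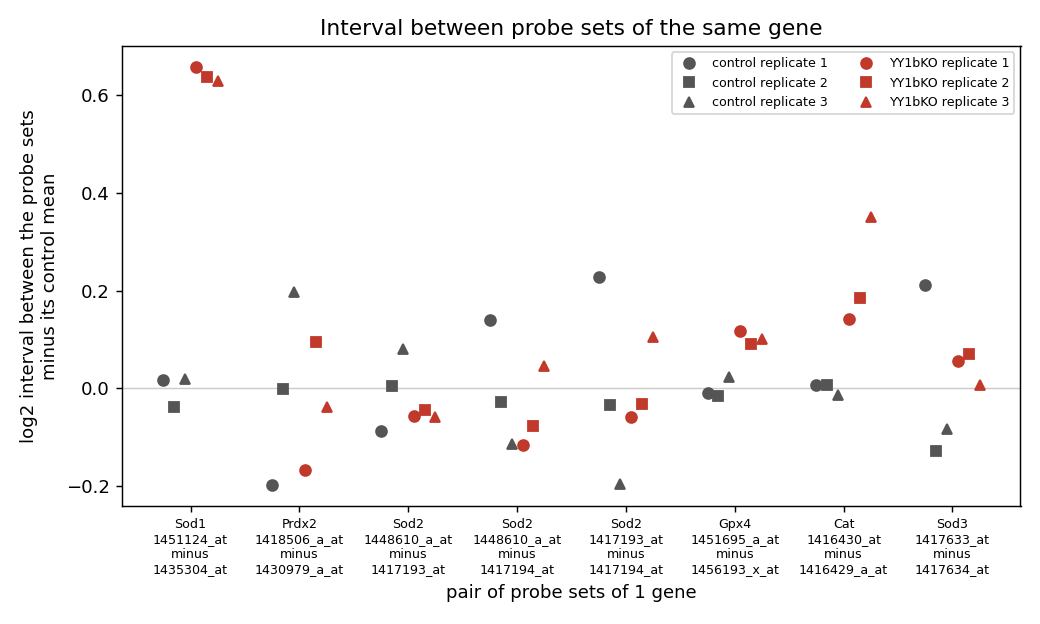
Log2 interval between 2 probe sets of the same gene in each array, minus the mean interval of the controls, for the 8 pairs among the members (grey, control; red, YY1bKO; n = 3 arrays each). The red symbols lie above all grey ones for Sod1, Gpx4 and Cat.

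Across arrays the median of the members followed a profile that was not only that of the groups. Control replicates 2 and 3 held the lowest value of 8 and 7 of the 16 probe sets, and control replicate 1 held the lowest of 0 and the highest of 5. With each probe set centred on its mean, the member median was 0.09, -0.26 and -0.28 in control replicates 1 to 3, against 0.19, 0.01 and 0.18 in YY1bKO. The adipocyte marker mean was 0.21, -0.28 and -0.17 and then 0.13, -0.03 and 0.13, and the fibroblast and preadipocyte mean 0.36, -0.48 and -0.34 and then 0.17, 0.04 and 0.24. The endothelial mean was 0.22, -0.51 and -0.22 and then 0.10, 0.07 and 0.35. Control replicate 1 was thus high, and control replicates 2 and 3 low, in the member median and in these 3 marker lists. Not every member followed it. In control replicate 1, Gpx3 (-0.57) and Sod1 1451124_at (-0.23) were below their own means. Both Prdx2 probe sets were above theirs in control replicate 2 (0.07 and 0.05). The array's own Gapdh controls, whose 3 prime over 5 prime log2 ratio rises as RNA degrades, gave 0.11 in control replicate 1 and from 0.18 to 0.23 in the other arrays, while the actin controls gave 0.98 there and from 0.83 to 1.11 in the others. Their part in the members' differences was not tested. In whole fat, a different number of cells of a type and a different amount of RNA per cell cannot be told apart.

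Leaving out single arrays moved the count of members at an unadjusted limma p under 0.05. Without control replicate 1 it was 10 of 16, all higher, where 12.2% of all probe sets were higher. The 6 added were both bright Sod2 probe sets (0.35 and 0.26), both of Cat (0.30 and 0.53), Sod3 1417633_at (0.58) and Gpx4 1456193_x_at (0.34). Other arrays moved some members the other way. Without control replicate 2, Gpx1 was at 0.12, Sod3 1417633_at at 0.11, Sod2 1417193_at at 0.05 and Sod2 1448610_a_at at -0.0035. The probe sets of Prdx2 (0.18 and 0.22) and of Gpx4 (0.37 and 0.28) rose there. Without control replicate 3, Cat 1416429_a_at was at 0.02, Cat 1416430_at at 0.24 and Gpx4 1456193_x_at at 0.16. Gpx1 (0.31), Prdx3 (0.47) and Gpx3 (1.27) rose in that fit. Without YY1bKO replicate 1 or without YY1bKO replicate 3 the count was 2, Sod1 1451124_at and Gpx3, where the shares were 4.48% and 4.12%. Those probe sets kept an unadjusted limma p under 0.05 without any single array, with log2 differences from 0.54 to 0.62 and from 1.08 to 1.37. Prdx3 ranged from 0.30 without control replicate 2 to 0.57 without control replicate 1.

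**Figure D4:**
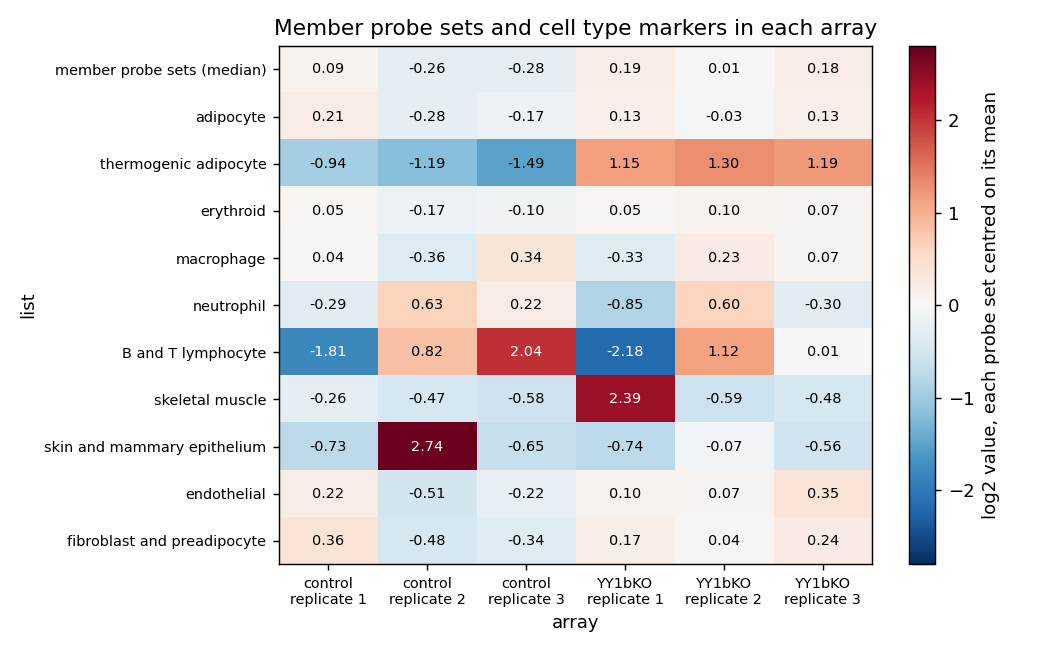
Centred log2 values in each array, as the median of the 16 member probe sets (top row) and the mean of each cell type marker list. Member values are highest in YY1bKO replicates 1 and 3 (0.19 and 0.18) and lowest in control replicates 2 and 3 (-0.26 and -0.28), and the lymphocyte, muscle and epithelial lists span a far wider range.

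Of the 97 listed markers of 10 cell types, 87 had a probe set of their own, and each list is described by its brightest probe set per gene. Over all 12393 genes, 6317 had a higher mean in YY1bKO. Thermogenic adipocyte genes were higher in 8 of 8, with a median of 1.86, and Ucp1 and Fabp3 rose at a limma adjusted p under 0.05 (both over all probe sets). Their summed intensity ran from 1525 to 3043 in controls and from 9121 to 10130 in YY1bKO. Adipocyte genes were higher in 8 of 9 (median 0.12, sums from 109967 to 138642 and from 127638 to 134977). Fibroblast and preadipocyte genes were higher in 8 of 9 (0.25, from 39204 to 65544 and from 52514 to 59929), and endothelial genes in 8 of 8 (0.33, from 4100 to 6975 and from 6234 to 7714). Skeletal muscle genes were higher in 10 of 10 (0.87, from 476 to 631 and from 761 to 4119), mostly through YY1bKO replicate 1. Their centred mean was 2.39 in that array and -0.59 and -0.48 in YY1bKO replicates 2 and 3, against -0.26, -0.47 and -0.58 in controls. Acta1 alone of them had every YY1bKO array above every control array, as had 10.3% of all probe sets. Its log2 difference was 2.08 (limma adjusted p = 0.278).

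Erythroid genes were higher in 6 of 7 (0.05), and their sums did not overlap, from 379 to 472 in controls and from 496 to 532 in YY1bKO. Their bright members Hbb-b2 (0.30) and Alas2 (0.64) had limma adjusted p of 0.376 and 0.476, and Slc4a1, Hba-a1 and Rhag lay under the lower quartile of every array. Red cells are rich in Prdx2, catalase and Gpx1, and the part of erythroid RNA in the values of those genes was not tested. Macrophage genes were higher in 4 of 9 (-0.04, from 10693 to 17629 and from 11644 to 14971) and neutrophil genes in 2 of 8 (-0.25, from 1143 to 1988 and from 359 to 1535). B and T lymphocyte genes were higher in 0 of 8 (-0.68, from 546 to 10309 and from 447 to 5113). Skin and mammary epithelium genes were higher in 1 of 11 (-0.95, from 307 to 11630 and from 292 to 507).

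The genes that serve these enzymes, or make their substrates, were read from lists by role. Of 125 genes in 10 lists, 102 had a probe set. Their mean in YY1bKO was higher in 64 and lower in 38, where 6317 of all 12393 genes had a higher one. At an unadjusted limma p under 0.05, 15 were higher, where 8.6% of the 12393 genes were, and 0 were lower, where 2.11% were. None passed a limma adjusted p of 0.05, and the lowest, of Txnip, was 0.171.

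Of 6 other glutathione peroxidases and peroxiredoxins measured, 3 were higher (median 0.03), and Gpx8, a peroxidase of the endoplasmic reticulum, had a log2 difference of 0.49 ± 0.19 (limma adjusted p = 0.492). Gpx2, of epithelia, was at -0.71 ± 0.61, and Prdx4, of the secretory pathway, at 0.14 ± 0.13. Genes that bring metal to the dismutases were lower in 4 of 5 (median -0.14): the copper importer Slc31a1 (-0.31) and the copper pump Atp7a (-0.36) had lower means, and Ccs, the copper chaperone that loads Sod1, a higher one (0.20 ± 0.12). None of the 5 had an unadjusted limma p under 0.05. Their centred mean was 0.04, 0.36 and -0.18 in controls and -0.10, -0.18 and 0.06 in YY1bKO, so the groups overlapped.

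Of 12 genes of thioredoxin, glutaredoxin and sulfiredoxin, 9 were higher (median 0.09) and 2 had an unadjusted limma p under 0.05. These were Txnip, which binds and inhibits thioredoxin (0.47 ± 0.08), and Glrx2, the mitochondrial glutaredoxin (0.53 ± 0.15). Txnrd2, the mitochondrial reductase that serves Prdx3 through thioredoxin, was at 0.23 ± 0.10 with all YY1bKO arrays above the controls (limma adjusted p = 0.546). Glrx, the cytosolic glutaredoxin, is named here after its values were seen: it was at -1.50 ± 0.98 (limma adjusted p = 0.703), with all YY1bKO arrays below the controls. Glutathione synthesis and reduction had 6 of 9 higher (0.08) and 0 at an unadjusted limma p under 0.05. Gss, glutathione synthetase, was at 0.33, Gsr, glutathione reductase, at 0.25 and Slc3a2, an amino acid exchanger subunit, at 0.31. The 3 with lower means were Gclc (-0.44), Cth (-0.43) and Slc7a11 (-0.24), the last under the lower quartile of every array. Of the genes of NADPH supply 4 of 9 were higher (-0.02). Idh2, the mitochondrial isocitrate dehydrogenase that makes NADPH, was at 0.69 ± 0.14 (limma adjusted p = 0.218), beside Pgd (-0.27) and Me1 (-0.39) of the cytosol.

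Gpx1, Gpx3 and Gpx4 hold selenocysteine, so the machinery that inserts it was read as well. Of 10 such genes and other selenoproteins 8 were higher (0.13), and Pstk, the kinase that primes the selenocysteine transfer RNA (0.36 ± 0.12), and Selenow (0.31 ± 0.12) had an unadjusted limma p under 0.05. Selenom was at 0.38 ± 0.21. In the NRF2 list 9 of 11 were higher (0.13). Nfe2l2, the gene of NRF2 itself (0.33 ± 0.11), the ferritin heavy chain Fth1 (0.32 ± 0.12) and the biliverdin reductase Blvrb (0.28 ± 0.11) had an unadjusted limma p under 0.05 and no overlap between groups. Of all genes 8.6% were higher at that p, and in 10.3% of all probe sets every YY1bKO array lay above the controls. Nqo1 (0.06) and Hmox1 (0.13) of this list overlapped between groups, and Osgin1 (-0.30) and Maff (-0.05) had lower means.

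Among enzymes that make superoxide or peroxide, 4 of 11 were higher (-0.07). Xdh, xanthine dehydrogenase (0.62 ± 0.15), and Aox1, aldehyde oxidase (0.50 ± 0.19), had an unadjusted limma p under 0.05, and Nox4, an oxidase that releases hydrogen peroxide, was at 0.69 ± 0.30 (limma adjusted p = 0.544). Genes of peroxisome biogenesis, the home of catalase, were higher in 11 of 14 (0.14). The centred mean of this list was -0.06, 0.21 and -0.39 in controls and 0.17, -0.05 and 0.12 in YY1bKO. Control replicate 2 was thus above every YY1bKO array, and control replicate 3 was the lowest. Pex13, a part of the import pore through which catalase enters, was at 0.55 ± 0.14 (limma adjusted p = 0.321), Pex11a, which drives peroxisome division, at 0.40 ± 0.21 and Pxmp2 at 0.37 ± 0.20. Markers of mitochondrial content were higher in 9 of 15 (0.17), beside 0.45 for Prdx3 and 0.15, 0.14 and 0.10 for the Sod2 probe sets. Hspa9, the matrix chaperone (0.54 ± 0.16, with its 4 probe sets from -0.05 to 0.54), Cox4i1 (0.33 ± 0.10) and Atp5b (0.32 ± 0.12) had an unadjusted limma p under 0.05.

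**Figure D5:**
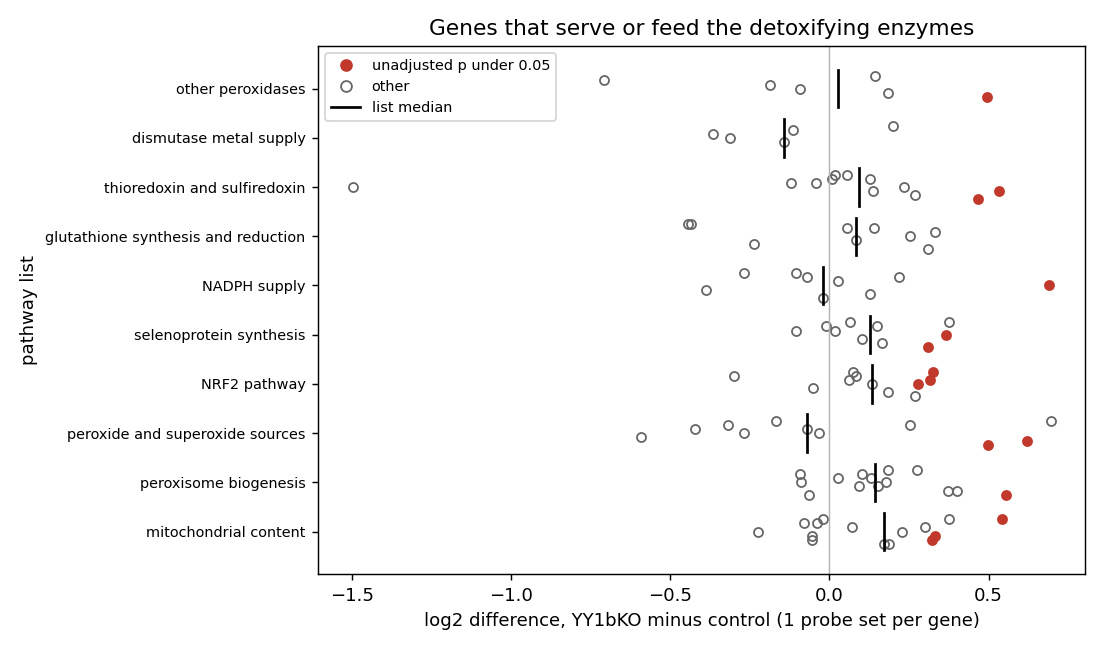
Log2 difference, YY1bKO minus control, of each measured gene in 10 pathway lists (1 probe set per gene, the brightest), with filled symbols for an unadjusted limma p under 0.05 and a bar at each list's median. The 15 filled symbols all lie above 0, and list medians run from -0.14 to 0.17.

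The genes nearest to 4 members over the 6 arrays were sought among 7202 genes above the median intensity, by the root mean square distance of log2 values centred on each gene's mean. For Sod1 1451124_at they were Fam216a, Eral1, which assembles the small mitochondrial ribosome subunit, and Mrps36, at distances from 0.041 to 0.045 beside a root mean square of 0.29 for Sod1 itself. For Prdx3 they were Tmem141, Stab1 and Amy1 (from 0.035 to 0.041, beside 0.27). For Cat 1416430_at they were Palmd, Efemp1 and Auh, an enzyme of leucine breakdown (from 0.037 to 0.046, beside 0.25). For Gpx3 the nearest were farther off, at 0.17 to 0.18 beside 0.63, and were Mbp, Gt(ROSA)26Sor and Eci1, an enoyl-CoA isomerase of fatty acid oxidation. With 6 arrays in 2 groups many genes share such a profile, and no test was made.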

How the data were processed

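The deposited table gives each probe set an intensity, which the authors computed with RMA, per the submitters' processing notes; its version and probe annotation are not stated there. RMA equalises the distributions of the arrays, so a change in total RNA per cell cannot appear, and it compresses low values. That the scale is linear, not logarithmic, follows from the range of the values.

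Arrays were grouped by their titles (control, n = 3; YY1bKO, n = 3). Values were transformed as log2(intensity + 1), a scale on which fold changes of dim probe sets are understated, and fitted with limma 3.58.1 (R 4.3.3, lmFit and eBayes) over 22626 probe sets, leaving out the 64 Affymetrix controls. P-values are 2-sided, adjusted by Benjamini-Hochberg over all 22626, with a threshold of 0.05. Errors are moderated standard errors, and intervals are 95%. The code was tested on simulated data. Probe sets with several genes (691) or none in the annotation table were fitted but not named.

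Members and lists were chosen with earlier results of these data known. Named were every member probe set, up to 3 genes of each pathway list with the smallest p (brightest probe set per gene), and 3 nearest genes for Sod1, Prdx3, Cat and Gpx3. Other genes and cell type markers named were chosen after their values were seen. Gene symbols came from the platform annotation, joined to list names by gene identifier through a RefSeq table of GRCm38.p6, used for names only. Alternatives changed the pseudocount, normalization, filter, probe set choice, eBayes settings, array weights, replicate block and arrays.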

Additional observations from a re-analysis of the deposited data

How the results depend on the processing

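No member probe set passed a limma adjusted p of 0.05 under any of the 18 alternatives tried, and the lowest adjusted p of a member in them was 0.0909 (Gpx3, without probe sets under the 50th percentile of brightness). The count of all probe sets past that threshold, 11, became 5 with array medians subtracted, 7 without the probe sets under the 25th percentile, 4 with 1 probe set per gene, 23 with array weights and 1 with the replicate number as a block, and ranged from 1 to 7 without single arrays. The count of members at an unadjusted limma p under 0.05, 4, stayed at 4 with the replicate block (7.66% of all probe sets were higher), was 6 with array weights (9.57%) and ranged from 2 to 10 without single arrays (from 4.12% to 12.2%). Without control replicate 2 and YY1bKO replicate 1 together, chosen after seeing the data, it was 2 (3.38%) and the count of all probe sets past the adjusted threshold 1. Fewer arrays also give less power. The labels do not say whether equal replicate numbers pair the arrays. Same-numbered deviations from the group means correlated at 0.61, 0.11 and 0.02, and control replicate 3 with YY1bKO replicate 2 at 0.60. Deviations of 3 arrays per group are not independent, so these values cannot settle pairing. Direction turned in 3 of 280 member values. Prdx2 1430979_a_at was -0.034 without control replicate 3 (up to 0.28 without control replicate 1). Sod2 1448610_a_at was -0.00353 without control replicate 2 and -0.019 without both arrays named (up to 0.26 without control replicate 1). Sod2 1417194_at, the dimmest member, drops out under the higher filter. The causes were not tested.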
